A study of Mus musculus with 16 samples.

Results

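The comparison described here is that of tumours with a knocked-down midkine gene (Mdk) under an antibody against PD1 with tumours of the same cells under an IgG2a control antibody. Its members were chosen by their labelled hairpin and antibody. They are 8 of the 16 tumours in the series, 4 shMdk anti-PD1 tumours and 4 shMdk IgG2a tumours. They were raised in mice by injecting B16R2L cells, a line of mouse melanoma, that carried a single hairpin against Mdk (shMdk-5). The other 8 tumours came from cells with a non-targeting hairpin (shCtrl), 4 of them under anti-PD1 and 4 under IgG2a. In every group treatment began at a tumour volume of 100 mm3 and went on for 2 weeks with 2 doses a week, per the labels. Anti-PD1 was clone RMP1-14 at 10 mg/kg, and the labels give no dose for IgG2a and no strain or age for the mice. The series title names the response of the knockdown tumours to PD1 therapy as the subject. All RNA came from whole excised tumours, so that a larger number of cells of a type and more RNA per cell cannot be told apart in any value below. The knockdown was represented by 1 hairpin line.

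PD1 is an inhibitory receptor of activated T cells. It binds the ligands PD-L1 and PD-L2 on tumour and myeloid cells, and an antibody that blocks it releases T cells from that brake. Released T cells secrete interferon gamma, a cytokine known to raise antigen presentation and T cell attracting chemokines in its target cells. Midkine is a secreted heparin-binding growth factor that binds cell surface proteoglycans such as the syndecans, and in melanoma it has been linked to lymphatic spread and to tumour macrophages. Macrophages in tumours can carry inflammatory genes, genes of so-called alternative activation or both, and the alternative genes include those of mannose and galactose lectins and arginase.

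The values are 3′ read counts that the authors divided by DESeq2 size factors, called normalised counts here. The 8 shMdk tumours held between 6784393 and 8886334 reads. Counting error did not account for the spread between any pair of tumours in a group, and numbers such as tumour 1 only name a tumour. Pigmentation genes, the defining markers of the labelled melanoma tissue, were high in every tumour, with 20844 to 34778 normalised counts of Pmel in the anti-PD1 tumours and 17273 to 29875 in the IgG2a tumours. The slope of a tumour's log2 values, relative to each gene's mean over all tumours, on the GC content of the transcript's 3′ end was above 0.05 per 10% GC in 3 of the 8 tumours (anti-PD1 tumour 1, IgG2a tumours 3 and 4). In the other 5 it was between -0.093 (anti-PD1 tumour 4) and -0.00045. The gene model Gm42418, which lies over ribosomal RNA, held 3.17% of the reads of IgG2a tumour 1, against 0.880% to 1.56% in the other 7. Tumours with a slope above 0.05 and those with high Gm42418 were left out in turn, while negative slopes entered only the fit with the slope as a covariate. Counts of genes that passed and of list members higher are given beside the result where they moved by more than 1.5 times. Other counts were not followed in this way, such as those of members lower, of groups without overlap or of lists made after the values were seen.

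Mdk itself did not separate the antibodies. It stood at 312, 290, 147 and 96.5 normalised counts in the shMdk anti-PD1 tumours, against 150, 203, 323 and 121 in the shMdk IgG2a tumours. The 2 groups overlapped almost entirely, with a log2 difference of 0.03 ± 0.36 (SE of the fit, adjusted p = 0.981). A two-sided exact permutation test gave p = 1, where the smallest p that 4 against 4 tumours allow is 0.0286. The mean level was 24.2% of that in shCtrl tumours under anti-PD1 and 23.1% under IgG2a.

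Across 14672 genes tested with limma on log2(normalised count + 1), 5 genes passed a Benjamini-Hochberg adjusted p of 0.05, which is 0.0341% of all genes. Of these, 4 were higher under anti-PD1 (0.0273%) and 1 was lower (0.00682%). At an unadjusted p under 0.05, 959 genes (6.54%) were higher and 867 (5.91%) lower, the 5 among them. The groups did not overlap in 1249 genes (8.51%). In 648 genes (4.42%) every anti-PD1 tumour lay above every IgG2a tumour, and in 601 (4.1%) every one lay below. Large differences were mostly upward, with 733 genes (5%) at a log2 difference of 1 or more and 197 (1.34%) at -1 or less. The log2 difference was above 0 in 53.2% of genes, and its median over all genes was 0.03.

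**Figure D1:**
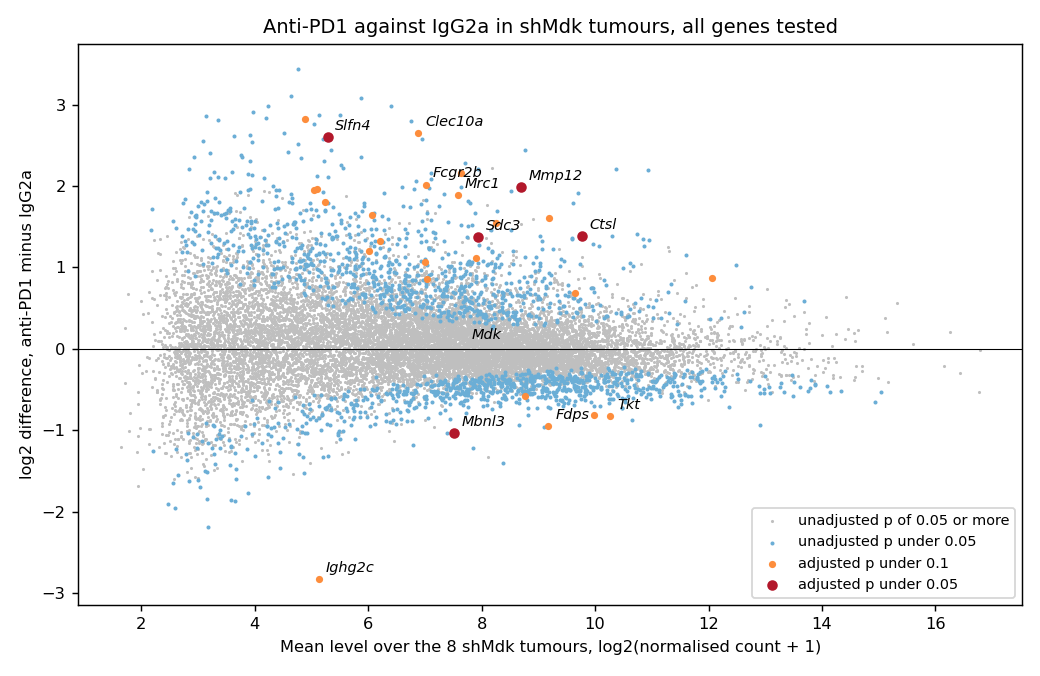
Log2 difference between anti-PD1 and IgG2a in shMdk tumours (vertical axis) against the mean level over the 8 shMdk tumours as log2(normalised count + 1) (horizontal axis), with 1 point for each of the 14672 genes tested. The 5 dark red points passed an adjusted p of 0.05, and most points far from 0 lie above the line.

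The 5 genes that passed were Ctsl, Sdc3, Mmp12, Slfn4 and Mbnl3. Cathepsin L (Ctsl) is a lysosomal protease, syndecan-3 (Sdc3) is a heparan sulphate proteoglycan known to bind midkine, Mmp12 is the metalloelastase of macrophages, Slfn4 is a Schlafen gene known in mouse myeloid cells, and Mbnl3 is a muscleblind-family RNA-binding protein. Promoter windows are shown for the 3 genes that rose and in whose window a searched motif was found. Each window runs from 250 bases before to 50 after the RefSeq start on GRCm38.p6, 5′ to 3′ on the gene's strand, with a match in capitals. The windows are chr13:64370471-64370770 (minus strand) for Ctsl, chr9:7344147-7344446 (plus strand) for Mmp12, where RefSeq lists 2 starts, and chr11:83174936-83175235 (plus strand) for Slfn4.
Ctsl: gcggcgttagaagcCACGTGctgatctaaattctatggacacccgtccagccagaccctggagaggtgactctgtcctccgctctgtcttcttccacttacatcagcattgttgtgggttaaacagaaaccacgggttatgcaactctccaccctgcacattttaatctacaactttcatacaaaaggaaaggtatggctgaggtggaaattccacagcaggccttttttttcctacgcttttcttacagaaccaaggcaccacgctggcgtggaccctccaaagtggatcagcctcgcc
Mmp12: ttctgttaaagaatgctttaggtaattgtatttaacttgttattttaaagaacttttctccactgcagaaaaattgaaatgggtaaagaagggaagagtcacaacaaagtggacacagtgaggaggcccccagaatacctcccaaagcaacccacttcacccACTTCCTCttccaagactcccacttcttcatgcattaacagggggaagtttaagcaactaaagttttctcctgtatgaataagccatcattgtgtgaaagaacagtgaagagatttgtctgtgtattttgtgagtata
Slfn4: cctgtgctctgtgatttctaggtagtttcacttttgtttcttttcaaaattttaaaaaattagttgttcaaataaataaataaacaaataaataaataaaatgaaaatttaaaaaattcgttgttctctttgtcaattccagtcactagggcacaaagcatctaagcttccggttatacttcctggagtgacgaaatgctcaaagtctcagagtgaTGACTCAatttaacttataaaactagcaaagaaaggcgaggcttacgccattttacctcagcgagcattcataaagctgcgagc

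The capitals mark CACGTG (an E-box) for Ctsl, GAGGAAGT on the reverse strand (a PU.1-type letter pattern) for Mmp12, and TGANTCA (an AP-1-type pattern) for Slfn4. Of 32851 mouse promoter windows of the same 300 bases, 7.15% held the first, 3.20% the second and 7.81% the third on either strand. Windows of Sdc3 and Mbnl3 held no match to these, to TTCNNNGAA (8.30% of windows) or to a consensus of the interferon-stimulated response element (3.44%). The Ctsl and Mbnl3 windows, set by the RefSeq start, lie wholly inside the gene spans of the GENCODE annotation, downstream of the start given there. These are matches of letters only.

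Ctsl (chr13:64359337-64370890, minus strand) stood at 1021, 1306, 1164 and 1585 normalised counts in the shMdk anti-PD1 tumours, against 498, 517, 452 and 450 in the IgG2a tumours. The IgG2a tumours lay close together and all 4 anti-PD1 tumours were above them. Ctsl rose by 1.39 ± 0.19 on the log2 scale (adjusted p = 0.0152). Sdc3 (chr4:130792537-130826319, plus strand) had 337, 395, 331 and 344 normalised counts under anti-PD1, against 188, 137, 122 and 104 under IgG2a. Again the groups did not overlap, and the anti-PD1 tumours varied little. Sdc3 rose by 1.38 ± 0.20 (adjusted p = 0.0152).

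Mmp12 (chr9:7344381-7369499, plus strand) had 469, 688, 620 and 861 normalised counts under anti-PD1, against 257, 130, 127 and 160 under IgG2a. The highest IgG2a tumour was still well below the lowest anti-PD1 tumour, and the rise was 1.99 ± 0.31 (adjusted p = 0.0312). Slfn4 (chr11:83175186-83190216, plus strand) was low under IgG2a. It had 63.1, 61.7, 61.0 and 75.3 normalised counts under anti-PD1, against 6.68, 18.2, 10.4 and 7.36 under IgG2a. Its 4 anti-PD1 tumours were nearly equal, and it rose by 2.60 ± 0.44 (adjusted p = 0.0481), the largest change among the 5.

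Mbnl3 (chrX:51117269-51206532, minus strand) was the gene that fell. Its normalised counts were 105, 133, 135 and 104 under anti-PD1, against 241, 247, 250 and 235 under IgG2a. Both groups were tight and far apart, and Mbnl3 fell by 1.04 ± 0.18 on the log2 scale (adjusted p = 0.0481). All 5 genes kept their direction in 28 alternative analyses, but the calls were sensitive to single tumours. Without IgG2a tumour 2, 3 or 4, or without anti-PD1 tumour 2 or 4, the number of genes that passed was 0, and without anti-PD1 tumour 3 it was 12. Without the 3 shMdk tumours with a 3′ GC slope above 0.05 (and 2 such shCtrl tumours) only Ctsl passed, whereas with the slope of all 16 tumours as a covariate 76 genes passed, the 5 among them. Over the alternatives, the adjusted p of Ctsl ran from 5.2e-08 to 0.102 and that of Slfn4 from 2.4e-06 to 0.259. DESeq2 on the recovered reads called 248 genes, 169 higher and 79 lower, the 5 among them.

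**Figure D2:**
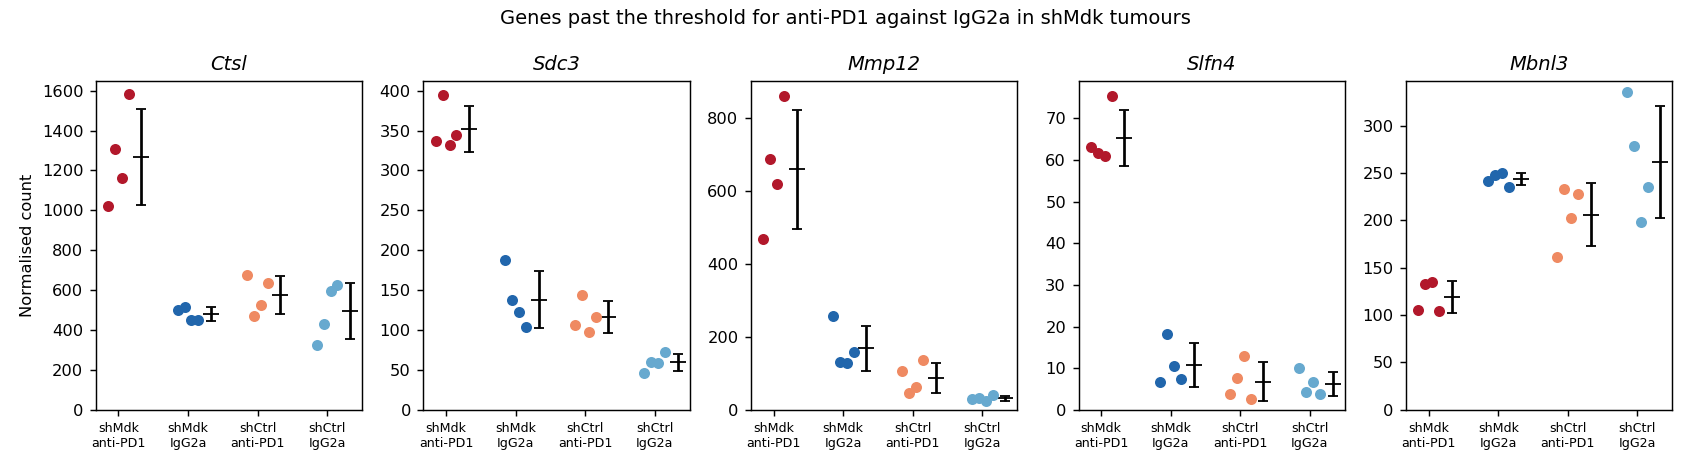
Normalised counts of the 5 genes that passed, with 1 point per tumour in each of the 4 groups, and bars for the mean ± SD over 4 tumours. In all 5 panels the shMdk anti-PD1 points (left) do not overlap the shMdk IgG2a points, whose Slfn4 values stay between 6.68 and 18.2.

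The genes with the next smallest p-values did not pass, and their values are given without a call. Among the higher ones were 3 surface receptors that myeloid cells carry, picked out for description. Mrc1 ranked 22 by p, behind higher genes not described in this paragraph, such as Ctsb, Car4, Cd38 and Adam8. Clec10a, a galactose-binding lectin, had 290, 309, 79.7 and 144 normalised counts under anti-PD1, against 32.3, 26.4, 33.2 and 21.0 under IgG2a (log2 difference 2.65 ± 0.48, adjusted p = 0.0837). Fcgr2b, the inhibitory Fc gamma receptor, had 144, 315, 128 and 243 under anti-PD1 and 28.4 to 63.5 under IgG2a (2.02 ± 0.37, adjusted p = 0.0837). Mrc1, the mannose receptor, had 248, 401, 164 and 395 under anti-PD1, against 111, 74.6, 67.3 and 58.9 under IgG2a (1.89 ± 0.38, adjusted p = 0.0843). In each of the 3 the groups did not overlap, and anti-PD1 tumour 3 was lowest within its group.

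Rgs1, a regulator of G protein signalling known from activated lymphocytes, averaged 57.2 ± 11.9 normalised counts under anti-PD1 and 15.8 ± 4.02 under IgG2a (SD, n = 4 each; log2 difference 1.81, adjusted p = 0.0837). Cblb, a ubiquitin ligase that restrains T cell activation, averaged 105 ± 7.87 under anti-PD1 and 41.6 ± 5.89 under IgG2a (1.32, adjusted p = 0.0837). Metrnl, a secreted meteorin-like protein, had a log2 difference of 1.06, and Dab2, a clathrin adaptor, one of 0.68, both at an adjusted p of 0.0837. Among the lower genes, of which Ighg2c is given with the B cell genes, Fdps, an enzyme of the mevalonate pathway, had 300, 513, 455 and 322 normalised counts under anti-PD1, against 727, 895, 739 and 657 under IgG2a (-0.95 ± 0.18, adjusted p = 0.0837). Tkt, the transketolase of the pentose phosphate pathway, averaged 885 ± 68.8 under anti-PD1 and 1584 ± 246 under IgG2a (-0.83, adjusted p = 0.0837). Adrm1, a ubiquitin receptor of the proteasome, differed by -0.58 (adjusted p = 0.0903) and Alyref, an mRNA export adaptor, by -0.82 (adjusted p = 0.0951). At an adjusted p under 0.1 stood 28 genes, 22 higher and 6 lower.

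Genes were then grouped by role in 35 lists. Except for Ctsl among lysosomal genes and Sdc3 among midkine's partners, no list member passed the adjusted threshold, so the lists below are described by their counts at an unadjusted p under 0.05 and their medians, beside 6.54% of all genes higher and 5.91% lower at that p, 4.42% with every anti-PD1 tumour above every IgG2a tumour, 53.2% with a positive difference and a median of 0.03. With the 3′ GC slope as a covariate, the number of members higher at that p was 17 for macrophages and monocytes (9 without it), 8 for type I interferon (5), 7 for cytotoxic effectors (4), 6 for T cells (3), 2 for checkpoint genes (1) and 0 for apoptosis genes (1).

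Markers of alternatively activated myeloid cells had the highest median among the lists with 5 or more tested members. Of 14 listed genes 11 were tested, 11 of 11 had a positive log2 difference, 8 were higher at an unadjusted p under 0.05 and in 8 the groups did not overlap. The median log2 difference was 2.21. Chil3, a chitinase-like protein of macrophages, had 48.6, 206, 67.8 and 88.0 normalised counts under anti-PD1, against 2.23, 10.9, 24.6 and 11.6 under IgG2a (3.08 ± 0.66, adjusted p = 0.112). Arg1, arginase 1, had 630, 891, 532 and 868 under anti-PD1, against 172, 87.3, 88.2 and 222 under IgG2a (2.44 ± 0.60, adjusted p = 0.162). Every anti-PD1 tumour was above every IgG2a tumour for both. Cd163, a scavenger receptor, had 18.5, 15.7, 3.39 and 20.3 under anti-PD1, against 0, 2.73, 1.90 and 0 under IgG2a (2.86 ± 0.67, adjusted p = 0.134), so the size of its difference depends on the added 1. The exception in size was Gpnmb, named after its values were seen, which melanoma cells also express, with a log2 difference of 0.03 and 13177 to 21557 normalised counts under anti-PD1 against 16673 to 20219 under IgG2a. The summed level of the list, most of it Gpnmb, overlapped between the antibodies.

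General markers of macrophages and monocytes were less uniform. All 22 listed genes were tested, 21 had a positive difference, 9 were higher at an unadjusted p under 0.05, and the median was 0.85. Ly6c2, a marker of inflammatory monocytes whose reads can be shared with its near-identical relatives, had 255, 401, 156 and 133 normalised counts under anti-PD1, against 55.6, 48.2, 108 and 54.7 under IgG2a (1.75 ± 0.55, adjusted p = 0.247). Ccr2, the receptor for Ccl2, had 187, 265, 146 and 113 under anti-PD1, against 62.3, 53.7, 95.7 and 50.5 under IgG2a (1.40, adjusted p = 0.385). These 2 genes did not overlap between the groups. The macrophage antigen F4/80 (Adgre1) did overlap, at 168, 166, 91.5 and 87.2 under anti-PD1 against 112, 30.01, 59.7 and 77.8 under IgG2a (0.94 ± 0.82, adjusted p = 0.619). So did the pan-leukocyte gene Ptprc, at 266, 292, 142 and 128 under anti-PD1, against 177, 87.3, 118 and 126 under IgG2a (0.65 ± 0.51, adjusted p = 0.586). The summed level of the 22 markers ran from 6459 to 13624 under anti-PD1 and from 3044 to 7074 under IgG2a, and anti-PD1 tumours 1 and 2 held the high values. The number of members higher was 5 without IgG2a tumour 2 or without anti-PD1 tumour 2, and 4 without the tumours with a 3′ GC slope above 0.05.

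Chemokines had positive differences throughout the list. Of 21 listed, 16 were tested, 16 of 16 had a positive difference, 9 were higher at an unadjusted p under 0.05, 8 did not overlap, and the median was 1.19. Ccl8, a monocyte attractant, was the most abundant of those named, with 2759, 3307, 1132 and 1557 normalised counts under anti-PD1, against 433, 279, 471 and 615 under IgG2a (2.21 ± 0.64, adjusted p = 0.210). Ccl2, the main ligand of Ccr2, had 134, 161, 311 and 289 under anti-PD1, against 47.8, 65.5, 57.8 and 30.5 under IgG2a (2.09 ± 0.47, adjusted p = 0.120). Ccl12, its mouse relative, had 24.3, 60.7, 82.2 and 79.6 under anti-PD1, against 7.79, 13.6, 14.2 and 3.15 under IgG2a (2.58 ± 0.69, adjusted p = 0.201). For Ccl8 tumours 1 and 2 were the high ones within the anti-PD1 group, and for Ccl2 tumours 3 and 4. The sum over the 16 chemokines ran from 6707 to 11232 under anti-PD1 and from 2847 to 4133 under IgG2a.

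Neutrophil and inflammatory myeloid genes also had positive differences, and fewer of them separated the groups. The difference was positive in 12 of 12 genes tested, 4 were higher at an unadjusted p under 0.05 and 1 of 12 did not overlap (4.42% of all genes), with a median of 0.86. Retnlg, a resistin-like gene of mouse neutrophils, had 23.3, 18.6, 11.9 and 12.7 normalised counts under anti-PD1, against 2.23, 1.82, 2.84 and 0 under IgG2a (2.81 ± 0.63, adjusted p = 0.112). S100a8, a calprotectin subunit, had 235, 13.7, 107 and 43.2 under anti-PD1, against 7.79, 18.2, 2.84 and 35.7 under IgG2a (2.36 ± 1.05, adjusted p = 0.377), so that its groups overlapped. Without anti-PD1 tumour 1 the number of members higher was 1, and it was 2 without anti-PD1 tumour 3, without IgG2a tumour 3 or without the tumours with a 3′ GC slope above 0.05. Dendritic cell genes differed less, with a median of 0.28, 4 of 6 tested genes positive and a lowest log2 difference of -0.62. No member separated the groups. Their summed level overlapped, at 227 to 481 under anti-PD1 and 231 to 348 under IgG2a.

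**Figure D3:**
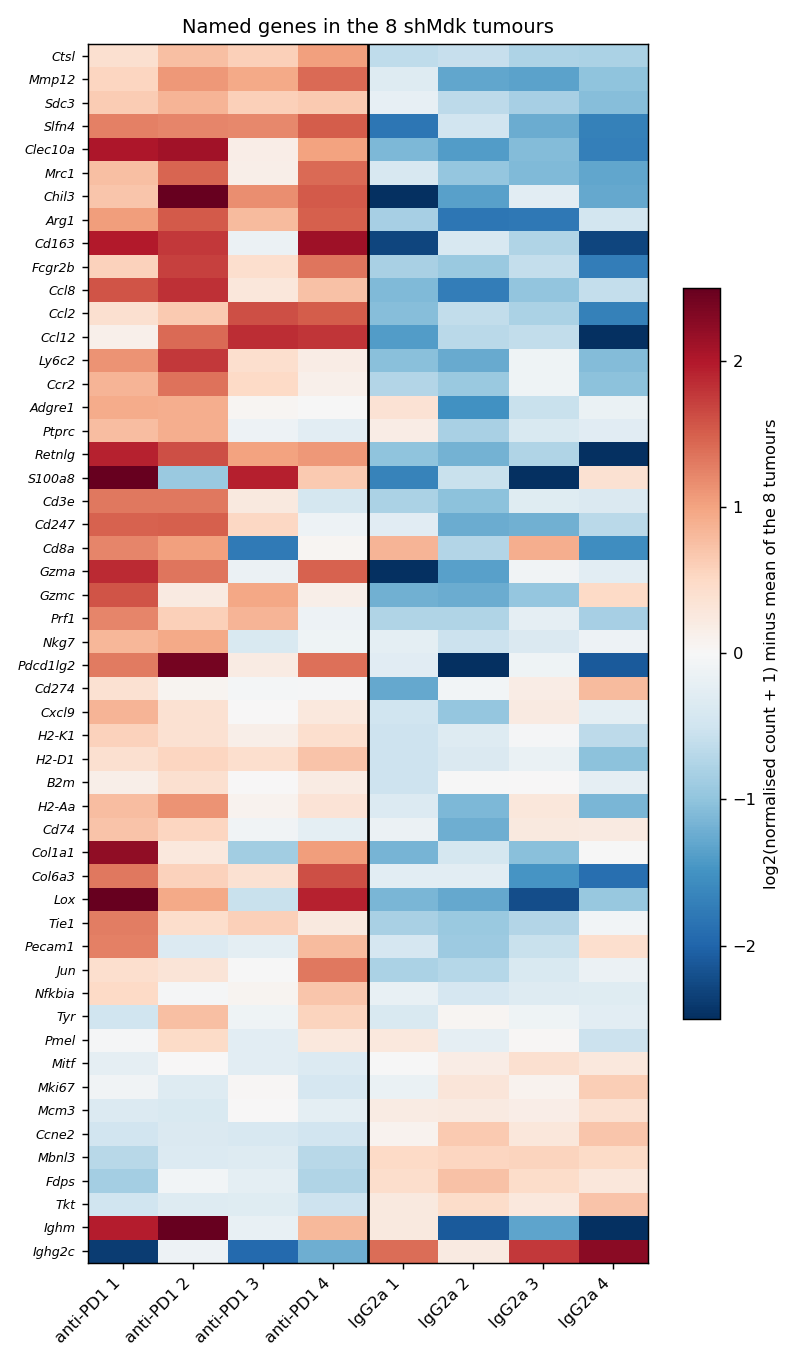
Level of each named gene (rows) in the 8 shMdk tumours (columns, anti-PD1 left and IgG2a right of the black line), as log2(normalised count + 1) minus the gene's mean over the 8 tumours, with values beyond the scale in its end colours. Ctsl, Sdc3, Mmp12 and Slfn4 are red in 4 of 4 anti-PD1 tumours, whereas Cd8a and Cd274 show no such division.

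Among lymphocytes, T cell transcripts were scarce. Of 22 listed genes 14 were tested, 13 had a positive difference, 3 were higher at an unadjusted p under 0.05, and the median was 0.999. The summed level of the 15 T cell genes in the table was 225 to 519 normalised counts under anti-PD1 and 157 to 264 under IgG2a. The T cell receptor subunit gene Cd3e had 22.3, 22.5, 10.2 and 5.92 normalised counts under anti-PD1, against 4.45, 3.64, 6.64 and 6.31 under IgG2a (1.23 ± 0.63, adjusted p = 0.429). Its partner Cd247 had 17.5, 17.6, 8.47 and 5.08 under anti-PD1, against 4.45, 1.82, 1.90 and 3.15 under IgG2a (1.69 ± 0.52, adjusted p = 0.236). Cd8a, the coreceptor of cytotoxic T cells, was at 20.4, 17.6, 1.69 and 8.46 under anti-PD1 and at 15.6, 4.55, 16.1 and 2.10 under IgG2a. The Cd8a groups overlapped fully (0.26 ± 0.77, adjusted p = 0.894), and its direction changed in 5 alternative analyses. Pdcd1, the gene of PD1 itself, lay below the expression filter with 26 reads over the 4 anti-PD1 tumours and 22 over the 4 IgG2a tumours. Foxp3, the factor of regulatory T cells, had 24 reads under anti-PD1 and 11 under IgG2a, also below the filter. The count of 3 was 0 without anti-PD1 tumour 1 and 1 without anti-PD1 tumour 2, and it was 0 without the tumours with a 3′ GC slope above 0.05.

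Cytotoxic effectors had a positive difference in 12 of 12 genes tested, with 4 higher at an unadjusted p under 0.05 and a median of 1.25. Their summed level did not overlap, at 1196 to 2067 under anti-PD1 and 504 to 940 under IgG2a. Gzma, granzyme A, had 110, 75.4, 26.3 and 83.8 normalised counts under anti-PD1, against 3.34, 10.9, 27.5 and 24.2 under IgG2a (2.26 ± 0.72, adjusted p = 0.247). Perforin (Prf1) had 64.1, 41.1, 49.2 and 24.5 under anti-PD1, against 15.6, 15.5, 22.8 and 14.7 under IgG2a (1.28 ± 0.69, adjusted p = 0.448). Gzmc, a granzyme that can share reads with its close relatives, had 281, 110, 183 and 103 under anti-PD1, against 40.1, 39.1, 47.4 and 134 under IgG2a (1.45 ± 0.63, adjusted p = 0.366). Of these 3 genes Prf1 alone showed no overlap. Serglycin (Srgn), the granule proteoglycan that myeloid cells also express, had 199, 270, 259 and 581 under anti-PD1, against 63.4, 78.2, 80.6 and 49.4 under IgG2a (2.15 ± 0.45, adjusted p = 0.0951). The granule membrane gene Nkg7 stood at 62.2, 67.6, 26.3 and 32.2 under anti-PD1 and at 28.9, 23.6, 26.5 and 31.5 under IgG2a (0.64, adjusted p = 0.659). The count of 4 was 2 without IgG2a tumour 1, IgG2a tumour 2 or anti-PD1 tumour 1.

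The ligands of PD1 differed in pattern. Pdcd1lg2, the gene of PD-L2, had 32.1, 69.5, 14.4 and 33.9 normalised counts under anti-PD1, against 10.0, 0.909, 11.4 and 2.10 under IgG2a (2.65 ± 0.66, adjusted p = 0.173), with no overlap. Cd274, the gene of PD-L1, had 290, 236, 217 and 219 under anti-PD1 and 91.2, 212, 256 and 388 under IgG2a (0.19 ± 0.45, adjusted p = 0.866), and its direction turned when IgG2a tumour 1 was left out. Of the 9 checkpoint genes tested 1 was higher at an unadjusted p under 0.05 (2 without IgG2a tumour 4), and their median was 0.44.

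Interferon response genes mostly had positive differences. Of 25 genes of the interferon gamma list 23 had a positive difference and 3 were higher at an unadjusted p under 0.05 (median 0.66), and of 30 type I interferon genes 27 were positive and 5 higher (median 0.53). In each list 5 genes did not overlap, beside 4.42% of all genes. Cxcl9, a T cell attractant induced by interferon gamma, had 970, 699, 545 and 644 normalised counts under anti-PD1, against 382, 274, 633 and 452 under IgG2a (0.75 ± 0.75, adjusted p = 0.663). IgG2a tumour 3 reached into the anti-PD1 range. Socs1, a feedback inhibitor of the pathway, had 22.3, 51.9, 55.9 and 41.5 under anti-PD1, against 21.1, 5.46, 8.53 and 1.05 under IgG2a (2.52 ± 0.69, adjusted p = 0.201). The type I genes Ifit2 and Oasl1 differed by 0.76 and 0.81, both at an adjusted p of 0.302. The interferon gamma count was 6 without IgG2a tumour 3 and 5 without the tumours with high Gm42418. The type I count was 10 without IgG2a tumour 3, 8 without anti-PD1 tumour 4, 3 without IgG2a tumour 1 or 4 or anti-PD1 tumour 1, 2 without IgG2a tumour 2 and 1 without anti-PD1 tumour 2.

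Genes of MHC class I presentation included both classical heavy chains among the higher members. Of 19 genes 17 had a positive difference and 7 were higher at an unadjusted p under 0.05 (median 0.56). H2-D1, a class I heavy chain, had 6998, 7768, 7126 and 8726 normalised counts under anti-PD1, against 3719, 4122, 4778 and 2629 under IgG2a (1.03 ± 0.30, adjusted p = 0.213). H2-K1, the other classical heavy chain, had 9830, 8618, 7326 and 8921 under anti-PD1, against 4598, 5329, 6506 and 4209 under IgG2a (0.76 ± 0.27, adjusted p = 0.295). Neither overlapped between the groups. H2-Q7, whose reads may be shared with related Q genes, averaged 359 ± 89.3 under anti-PD1 and 110 ± 11.8 under IgG2a (SD, n = 4 each; 1.66, adjusted p = 0.251). The light chain B2m averaged 39684 ± 4497 under anti-PD1 and 30735 ± 4949 under IgG2a (0.38, adjusted p = 0.484). Without anti-PD1 tumour 2 or 4 the number of class I genes higher was 4. Of 7 class II genes, 7 were positive and 1 was higher at an unadjusted p under 0.05. That gene was H2-Aa, a class II alpha chain, at 4659, 5940, 2909 and 3453 under anti-PD1 against 2157, 1262, 3317 and 1246 under IgG2a (1.16 ± 0.48, adjusted p = 0.344). Cd74, the invariant chain, stood at 2724 ± 852 under anti-PD1 and 2061 ± 788 under IgG2a (0.45, adjusted p = 0.782). The count of 1 was 0 without IgG2a tumour 2 or 4 or anti-PD1 tumour 1 or 2, and without the tumours with a 3′ GC slope above 0.05.

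**Figure D4:**
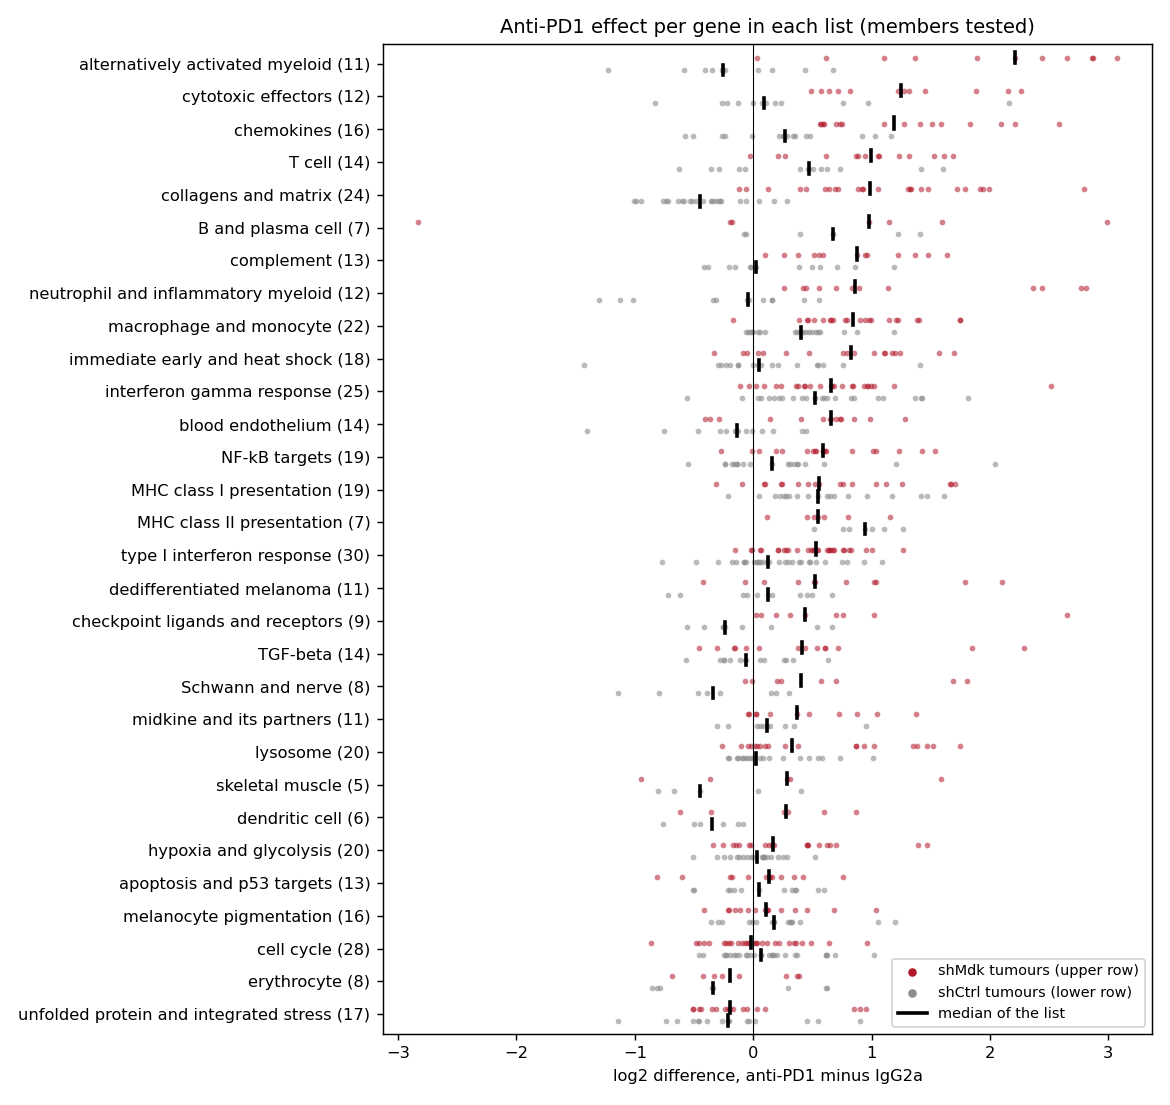
Log2 difference between anti-PD1 and IgG2a (horizontal axis) for each tested member of the lists with 5 or more tested members (rows, with the number tested), with red points for shMdk tumours and grey points for shCtrl tumours and a black bar at each median. The shMdk medians of alternatively activated myeloid genes (2.21) and cytotoxic effectors (1.25) are at the top, and that of cell cycle genes (-0.02) is near 0.

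Matrix and vessel genes had positive differences for the most part, with a wide spread between tumours. Of 24 collagen and matrix genes tested 22 had a positive difference, 13 were higher at an unadjusted p under 0.05 and 3 did not overlap (median 0.99). Col6a3, a collagen VI chain, had 685, 408, 355 and 840 normalised counts under anti-PD1, against 229, 227, 98.6 and 73.6 under IgG2a (1.94 ± 0.44, adjusted p = 0.120). Col1a1, a collagen I chain, had 6675, 1723, 786 and 2929 under anti-PD1, against 638, 1047, 691 and 1415 under IgG2a (1.33 ± 0.53, adjusted p = 0.337). Lox, which crosslinks collagen, had 472, 93.0, 32.2 and 184 under anti-PD1, against 21.1, 19.1, 9.48 and 24.2 under IgG2a (2.80 ± 0.76, adjusted p = 0.201). Anti-PD1 tumour 1 was the highest for Col1a1 and Lox, and tumour 3 the lowest for all 3. The count of 13 was 8 without anti-PD1 tumour 1 or 4, and 5 without the tumours with a 3′ GC slope above 0.05. Of 14 endothelial genes 5 were higher and 1 lower at an unadjusted p under 0.05 (median 0.65). Tie1, an endothelial receptor kinase, averaged 52.7 ± 18.5 under anti-PD1 and 20.9 ± 6.47 under IgG2a (1.28, adjusted p = 0.173). Plvap, a protein of vessel fenestrae, averaged 246 ± 79.4 under anti-PD1 and 142 ± 16.5 under IgG2a (0.74, adjusted p = 0.230). Pecam1, the endothelial CD31, averaged 378 ± 202 under anti-PD1 and 216 ± 94.0 under IgG2a (0.73, adjusted p = 0.401). Endothelial members higher numbered 3 without anti-PD1 tumour 4 and 3 without the tumours with a 3′ GC slope above 0.05. In the TGF-beta list 3 of 14 genes were higher.

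Lysosomal genes included Ctsl, the call with the smallest p. Of 20 genes tested 10 were higher at an unadjusted p under 0.05 and 8 did not overlap, although the median was 0.33, so that the list divided into higher members and members near 0. Among 11 genes of midkine and its partners 6 were higher and 5 did not overlap, with Sdc3 the member that passed. The midkine count was 3 without the tumours with a 3′ GC slope above 0.05. In the complement list 13 of 13 genes had a positive difference and 6 were higher (median 0.88). C1s1, a protease of the classical pathway, averaged 113 ± 38.0 normalised counts under anti-PD1 and 36.8 ± 14.6 under IgG2a (1.63, adjusted p = 0.198), and Serping1, the inhibitor of that protease, 1138 ± 662 under anti-PD1 and 397 ± 84.2 under IgG2a (1.36, adjusted p = 0.213). The complement count was 3 without anti-PD1 tumour 1, without IgG2a tumour 2 or without the tumours with a 3′ GC slope above 0.05.

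Of 19 NF-kB targets 7 were higher (median 0.59), and of 18 immediate early and heat shock genes 8 (median 0.82). Nfkbia, the NF-kB inhibitor, had 1161, 807, 869 and 1325 normalised counts under anti-PD1, against 725, 617, 657 and 664 under IgG2a (0.62 ± 0.16, adjusted p = 0.201). Jun, an AP-1 subunit, had 624, 588, 462 and 1159 under anti-PD1, against 270, 284, 356 and 422 under IgG2a (1.02 ± 0.29, adjusted p = 0.209). Dusp1, a phosphatase of the same early response, averaged 377 ± 75.4 under anti-PD1 and 172 ± 71.4 under IgG2a (1.24, adjusted p = 0.203). None of the 3 overlapped between the groups. Without the tumours with a 3′ GC slope above 0.05, the NF-kB count was 3 and the immediate early count 4, and the immediate early count was also 4 without anti-PD1 tumour 4 and 5 without IgG2a tumour 3.

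Pigmentation and cell cycle genes had medians near 0. Of 16 pigmentation genes 0 were higher and 1 was lower at an unadjusted p under 0.05 by limma, 10 had a positive difference, and the median was 0.11. The summed pigmentation level ran from 130393 to 170157 under anti-PD1 and from 149411 to 172133 under IgG2a, so that the groups overlapped. Tyr, tyrosinase, averaged 1373 ± 523 under anti-PD1 and 1021 ± 134 under IgG2a (0.35, adjusted p = 0.629). The lower member was Mitf, the master factor of melanocytes, at 8404, 9839, 8169 and 7725 under anti-PD1 and 9726, 11201, 13009 and 11714 under IgG2a (-0.42 ± 0.18, adjusted p = 0.371). Of 28 cell cycle genes 0 were higher and 4 lower at an unadjusted p under 0.05, and the median was -0.02. Ccne2, a cyclin of S phase entry, had 117, 127, 123 and 117 under anti-PD1, against 174, 256, 199 and 266 under IgG2a (-0.86 ± 0.22, adjusted p = 0.178). Mcm3, a replicative helicase subunit, had 1614, 1575, 2070 and 1723 under anti-PD1, against 2379, 2384, 2286 and 2657 under IgG2a (-0.48 ± 0.15, adjusted p = 0.234). In those 2 genes every anti-PD1 tumour was below every IgG2a tumour. The proliferation marker Mki67 averaged 1431 ± 204 under anti-PD1 and 1934 ± 446 under IgG2a (-0.42, adjusted p = 0.401). Without the tumours with a 3′ GC slope above 0.05, 3 cell cycle genes and 1 pigmentation gene were higher, and 1 pigmentation gene was higher without IgG2a tumour 1 or anti-PD1 tumour 3.

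Of 11 tested genes of dedifferentiated melanoma, several of which stromal and myeloid cells also express, 9 had a positive difference, 4 were higher at an unadjusted p under 0.05 and 1 did not overlap, with a median of 0.52. Their summed level ran from 11604 to 14365 under anti-PD1 and from 6982 to 10576 under IgG2a, with no overlap. Of 20 hypoxia and glycolysis genes 4 were higher, of 17 stress genes 2 were higher and 3 lower, and of 13 apoptosis and p53 genes 1 was higher and 2 lower. Bax, a pore-forming apoptosis protein, averaged 126 ± 19.8 under anti-PD1 and 191 ± 21.2 under IgG2a (-0.60, adjusted p = 0.183). The hypoxia count was 1 without anti-PD1 tumour 3 or 4, 2 without IgG2a tumour 2 or anti-PD1 tumour 1 and 9 without anti-PD1 tumour 2, and the dedifferentiation count was 2 without IgG2a tumour 3. Stress genes higher numbered 1 without IgG2a tumour 1, 3 or 4 or anti-PD1 tumour 4. The apoptosis count was 0 without IgG2a tumour 2 or 4 or anti-PD1 tumour 1 or 3, and 2 without anti-PD1 tumour 2.

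Of 12 listed B and plasma cell genes 7 were tested and 4 had a positive difference (median 0.98). At an unadjusted p under 0.05, 1 was higher and 1 lower. Ighg2c, a mouse IgG heavy chain constant gene, had 2.91, 17.6, 4.24 and 7.62 normalised counts under anti-PD1, against 52.3, 22.7, 68.3 and 95.7 under IgG2a (-2.83 ± 0.56, adjusted p = 0.0837). Ighm, the IgM heavy chain, had 138, 369, 30.5 and 61.8 under anti-PD1, against 41.2, 7.28, 13.3 and 4.21 under IgG2a (2.98 ± 0.92, adjusted p = 0.236). The Ighg2c groups did not overlap and the Ighm groups did. Of 5 immunoglobulin and joining chain genes, listed after the values were seen, 4 had a positive difference and Ighg2c alone a negative one. Among the positive ones were Igkc (1.15, adjusted p = 0.629) and Jchain (1.60, adjusted p = 0.492). Summed over the 8 B cell and plasma cell genes, the tumours ran from 197 to 1234 under anti-PD1 and from 213 to 420 under IgG2a.

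Markers of tissues around a tumour differed widely in level. Values existed for 2 of 13 keratinocyte, 2 of 10 mast cell and 4 of 11 adipocyte markers, which limits their sums. Schwann and nerve markers summed to 9010 to 16093 normalised counts under anti-PD1 and 8203 to 11876 under IgG2a. Skeletal muscle markers summed to 502 to 1033 under anti-PD1 and 454 to 754 under IgG2a. Keratinocyte markers summed to 28.8 to 138 normalised counts under anti-PD1 and 14.5 to 57.8 under IgG2a, and mast cell markers to 22.5 to 65.2 under anti-PD1 and 11.4 to 60.1 under IgG2a. Red cell markers overlapped, at 13856 to 31665 under anti-PD1 and 7935 to 32484 under IgG2a. Adipocyte markers summed to 595 to 1655 under anti-PD1 and 386 to 603 under IgG2a, most of it Lpl. The fat cell gene Fabp4, which macrophages also express, had 148, 271, 204 and 384 under anti-PD1, against 144, 79.1, 51.2 and 69.4 under IgG2a (1.56 ± 0.43, adjusted p = 0.201). The part of these markers in the other results was not tested.

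The same antibody comparison was made in shCtrl tumours. By limma 0 of 14672 genes passed there, with a smallest adjusted p of 0.141, and 556 (3.79%) had an unadjusted p under 0.05, while edgeR called 0 and DESeq2 called 7. The groups did not overlap in 310 genes (2.11%). The difference between the shMdk and shCtrl effects of anti-PD1, the test of whether the response differs, passed for 0 genes with limma, edgeR and DESeq2, and 506 genes (3.45%) had an unadjusted p under 0.05. Of those, 345 (2.35%) had the more positive effect in shMdk tumours and 161 (1.1%) in shCtrl tumours. So no gene named here was shown to respond in a way particular to the knockdown.

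For the 5 genes that passed, the values of the 2 effects are given side by side. These genes were chosen by their shMdk effect, which also enters the difference between the hairpins. Its unadjusted p-values are therefore biased towards small values for them, and none passed adjustment. Sdc3 and Mmp12 were higher under anti-PD1 with either hairpin, with log2 differences of 1.38 in shMdk and 0.95 in shCtrl for Sdc3, and of 1.99 in shMdk and 1.35 in shCtrl for Mmp12. The difference between the hairpins was 0.42 ± 0.28 for Sdc3 and 0.64 ± 0.44 for Mmp12, at unadjusted limma p-values of 0.148 and 0.162. Ctsl differed by 1.39 in shMdk and 0.26 in shCtrl, and Slfn4 by 2.60 in shMdk and -0.01 in shCtrl, with differences between the hairpins of 1.13 ± 0.27 for Ctsl and 2.61 ± 0.62 for Slfn4. Unadjusted limma p-values of 6.9e-04 and 6.0e-04 for these 2 genes did not pass adjustment over all genes. Slfn4 had 2.70 to 13.02 normalised counts in shCtrl anti-PD1 tumours and 3.69 to 10.1 in shCtrl IgG2a tumours, all below the shMdk anti-PD1 tumours. Mbnl3 differed by -1.04 in shMdk and -0.33 in shCtrl, a difference between the hairpins of -0.71 ± 0.25 at an unadjusted limma p-value of 0.011.

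The genes with the smallest p in that test, among those whose shMdk antibody groups did not overlap, are given as values. That filter picks genes by their shMdk effect, so a gap from the shCtrl effect is partly built in. Ighg2c differed by -2.83 in shMdk and 0.67 in shCtrl, Cd163 by 2.86 in shMdk and -1.23 in shCtrl, Chil3 by 3.08 in shMdk and -0.59 in shCtrl, and Stra6l, named for its likeness to a retinol receptor, by 1.30 in shMdk and -1.06 in shCtrl. The shCtrl values of these genes were low. Ighg2c averaged 2.44 normalised counts under shCtrl anti-PD1 and 1.29 under shCtrl IgG2a, and Cd163 averaged 1.83 under shCtrl anti-PD1 and 5.45 under shCtrl IgG2a. Chil3 averaged 3.70 under shCtrl anti-PD1 and 7.09 under shCtrl IgG2a. Stra6l averaged 5.32 under shCtrl anti-PD1 and 12.1 under shCtrl IgG2a, beside 14.7 under shMdk anti-PD1 and 5.29 under shMdk IgG2a. Such shCtrl differences rest on few reads and depend on the added 1. The same holds for the shMdk differences of Stra6l (64 reads under anti-PD1, 21 under IgG2a) and Cd163 (63 under anti-PD1, 5 under IgG2a). Over lists, 7 of 11 alternatively activated myeloid genes and 10 of 24 matrix genes had a more positive effect in shMdk tumours at an unadjusted p under 0.05, beside 2.35% of all genes. The median effects were 2.21 in shMdk and -0.25 in shCtrl for the myeloid list, and 0.99 in shMdk and -0.45 in shCtrl for the matrix list. The 3′ GC slope was 0.12, -0.00045, -0.046 and -0.093 in the shMdk anti-PD1 tumours and -0.020, -0.0084, 0.088 and 0.187 in the shMdk IgG2a tumours. It was -0.077, -0.083, -0.081 and -0.051 in the shCtrl anti-PD1 tumours and 0.164, 0.124, -0.129 and -0.095 in the shCtrl IgG2a tumours. The part of the slope in the list values of the difference between the hairpins was not tested. For other genes the point estimates lay closer together. The difference between the hairpins was 0.20 ± 0.50 for Rgs1, 0.17 ± 0.29 for Metrnl, 0.13 ± 0.61 for Fabp4 and -0.11 ± 0.67 for H2-Aa, errors that leave room for sizeable differences. Median effects of MHC class II genes were 0.55 in shMdk and 0.94 in shCtrl, and those of interferon gamma genes 0.66 in shMdk and 0.52 in shCtrl.

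Red cell markers were uneven among the shCtrl tumours, where their sum ran from 3780 to 575505 under anti-PD1 and from 5486 to 124052 under IgG2a, and their part in the shCtrl effects was not tested. Without shCtrl anti-PD1 tumour 2, which also had the high Gm42418 share of 4.47%, 36 genes passed in shMdk and 2 in shCtrl.

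**Figure D5:**
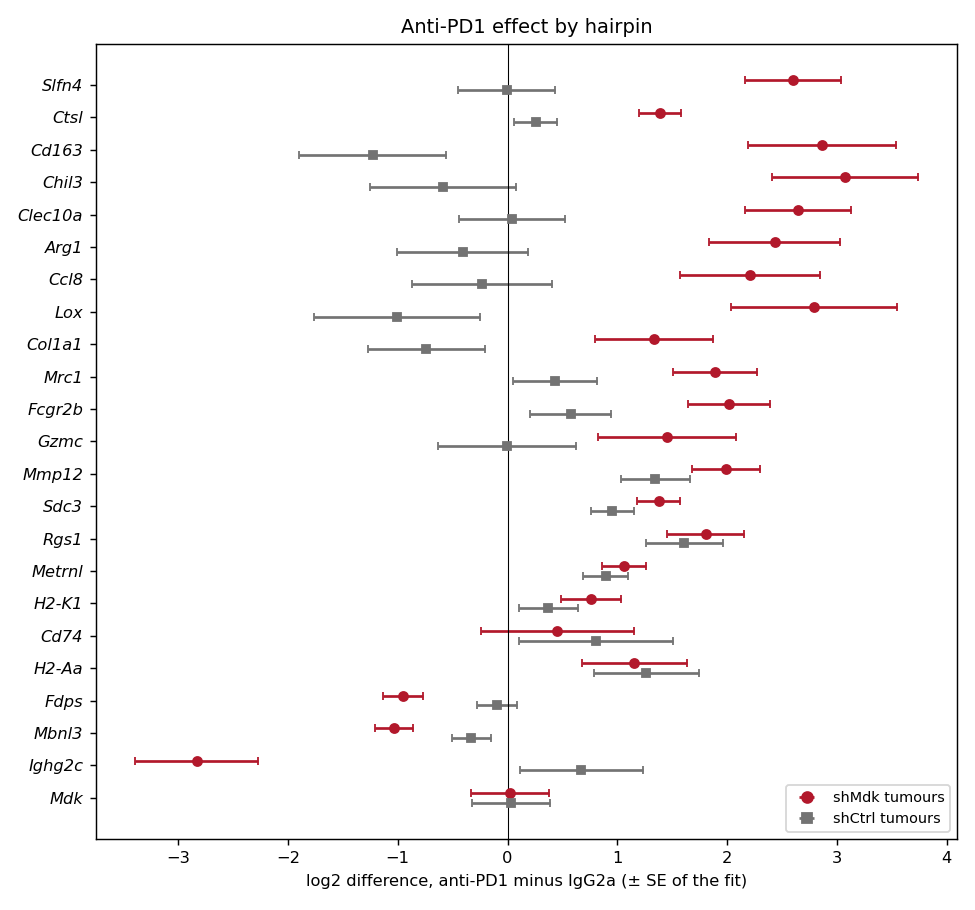
Log2 difference between anti-PD1 and IgG2a for named genes (rows) in shMdk tumours (red circles, upper) and shCtrl tumours (grey squares, lower), with bars for the SE of the fit. Slfn4 stands at 2.60 in shMdk and -0.01 in shCtrl tumours, while Metrnl stands at 1.06 in shMdk and 0.89 in shCtrl tumours.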

How the data were processed

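Gene expression was measured in 16 tumours, 4 per group. Per the labels' protocols, 500 ng of total RNA went into a stranded kit that reads mRNA from the poly(A) end, so values do not scale with gene length. The submitters' processing notes name the aligners Bowtie 1.0.0 and TopHat2 2.0.10, the counting tool HTSeq, FastQC 0.11.0, DESeq2, and SAMtools 0.1.19, and the build GRCm38 (mm10). The deposited table holds a normalised signal for 16094 genes, which is the authors' read count over a size factor per tumour. Whole reads could be recovered for 100% of values within a tolerance of 0.001, and 0 columns were left unused. Depth limits low genes, since 1 read is worth close to 1 normalised count.

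Genes were tested in R 4.3.3 with limma 3.58.1 on log2(normalised count + 1), with group means, a variance trend and all 16 tumours (12 residual degrees of freedom). A minimum mean of 5 normalised counts left 14672 genes, with Benjamini-Hochberg adjustment within each comparison and calls at an adjusted p under 0.05. Adjusted p-values are from this limma fit except where edgeR or DESeq2 is named. Log2 differences are anti-PD1 minus IgG2a and understate the change of low genes. The contrasts were the antibody effect in shMdk, the same in shCtrl, and the difference of the effects. Alternatives were edgeR 4.0.16 and DESeq2 1.42.0 on the recovered reads, other pseudocounts, filters and scaling, sample weights, the 8 shMdk tumours alone and each tumour left out in turn. After seeing the data, fits were added without the tumours with a 3′ GC slope above 0.05, without those with over 2% Gm42418 reads, and with the GC slope as a covariate. The slope is per 10% GC of the last 300 bases of the transcript, read over genes with a mean of at least 20. The scripts were tested on simulated data. Two-sided exact permutation was used for Mdk. Limma p-values set a difference against the spread between tumours within groups, pooled over the 4 groups. The labels describe the samples as separate tumours.

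The lists, and the rule for naming genes, were chosen with earlier results of these data known. The rule took Mdk, the genes that passed or the 10 with the smallest p in each direction whose groups do not overlap, up to 5 in each direction for the difference between the hairpins, 2 members per list with the smallest p, and a set of 42 genes, of which those that matter most are given. Genes for the difference between the hairpins were also taken only where the shMdk antibody groups do not overlap. Gene coordinates are from the GENCODE annotation of GRCm38 and promoters from RefSeq on GRCm38.p6. Gzmb, Ifng, Lag3 and Cd4 are not analysed here, and some genes named by the rule are not reported here.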

Additional observations from a re-analysis of the deposited data

Results flagged for a closer look

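In 4 of 156 groups of 4 tumours tested, one tumour lay apart from the other 3 by more than Dixon's 95% critical value allows, which chance does in about 1 of 20 groups. Slfn4 in shMdk anti-PD1 tumour 4 was 75.3 normalised counts, with the others between 61.0 and 63.1. Ly6c2 in shMdk IgG2a tumour 3 was 108, with the others between 48.2 and 55.6. Gzmc in shMdk IgG2a tumour 4 was 134, with the others between 39.1 and 47.4. Prf1 in shMdk IgG2a tumour 3 was 22.8, with the others between 14.7 and 15.6.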

How the results depend on the processing

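No paired analysis was possible because tumour numbers follow accession order and pair nothing. The number of genes that passed in shMdk tumours, 5 in the main analysis, was 3 with a pseudocount of 0.5, 3 with no filter, 3 with TMM scaling (3 higher and 0 lower, against 4 and 1), 27 with a pseudocount of 5, 25 in the 8 shMdk tumours alone, 8 with edgeR, 248 with DESeq2 and 73 with sample weights. It was 1 without the tumours with a 3′ GC slope above 0.05, 11 without those with a high Gm42418 share and 76 with the GC slope as a covariate. Leaving out single tumours gave 0 to 36, the lowest without shMdk tumours and the highest without shCtrl anti-PD1 tumour 2. In shCtrl the count of 0 became 20 with sample weights, 7 with DESeq2, 3 without the high Gm42418 tumours, and 0 to 2 with single tumours left out. The difference between the hairpins stayed at 0 in the 27 alternatives that could give it. Ctsl passed in 23 of 28, Sdc3 in 22, Mmp12 in 21, Mbnl3 in 12 and Slfn4 in 10.

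The log2 difference of Mdk, 0.03, turned to -0.35 with sample weights, -0.12 without the GC slope tumours and -0.076 without the high Gm42418 tumours, and ran from -0.21 to 0.35 with single tumours left out. Cd8a, 0.26, turned to -0.082 with sample weights and -0.30 without the GC slope tumours, and ran from -0.21 to 0.90 with single tumours left out. Cd274, 0.19, turned to -0.21 without the high Gm42418 tumours, was 0.68 without the GC slope tumours and 0.53 with the GC slope as a covariate, and ran from -0.21 to 0.48 with single tumours left out. The cause was not tested in any of these. With 4 tumours per group the standard error had a median of 0.27 on the log2 scale. At that error a gene needed a difference of about 1.57 to reach the smallest t-value among the called genes. Smaller differences were therefore not detectable by this test for genes with an error of that size or more. Ctsl (1.39), Sdc3 (1.38) and Mbnl3 (-1.04) passed with smaller differences because their own errors were lower, at 0.19, 0.20 and 0.18.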

Other observations

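Genes of sterol synthesis and uptake, a list put together after Fdps and Stard4 were seen among the lowest p-values and so given with no test, lay mostly below 0. Of 23 genes measured 21 had a negative log2 difference in shMdk tumours, 11 at an unadjusted p under 0.05 (5.91% of all genes) and 4 with no overlap between the groups (4.1%), with a median of -0.38, against 0.08 for the same genes in shCtrl tumours. Fdps and Stard4, which prompted the list, are counted in the 11 and in the 4. Mvd, an enzyme of the mevalonate pathway, averaged 382 normalised counts under anti-PD1 and 718 under IgG2a. Stard4, a sterol carrier, averaged 258 under anti-PD1 and 393 under IgG2a (adjusted p = 0.112 for Stard4). No member passed an adjusted p of 0.05 by limma, and the difference between the hairpins passed for 0 of them. The counts of this list and of the lists below were not repeated in the alternative analyses.

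Cathepsins and Schlafen genes were looked at because Ctsl and Slfn4 passed, again with no test. Of 12 cathepsins 6, Ctsl itself among them, were higher in every anti-PD1 tumour than in any IgG2a tumour (4.42% of all genes). Ctsb averaged 5523 normalised counts under anti-PD1 and 3020 under IgG2a, Ctsh 769 under anti-PD1 and 394 under IgG2a, and Ctsk, a collagen-degrading member, 112 under anti-PD1 and 41.8 under IgG2a. Ctsd, the most abundant of the 12, averaged 9646 under anti-PD1 and 10237 under IgG2a. Of 7 Schlafen genes 3, Slfn4 itself among them, showed no overlap, each higher under anti-PD1 (4.42% of all genes). Slfn5 averaged 330 under anti-PD1 and 146 under IgG2a and Slfn1 averaged 88.2 under anti-PD1 and 30.8 under IgG2a, whereas Slfn9 averaged 139 under anti-PD1 and 152 under IgG2a.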
